A study of Arabidopsis thaliana with 97 samples.

Results

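The comparison set leaf discs of the Arabidopsis thaliana mutant npr1-1 after 60 min in 100 nM flg22 against npr1-1 leaf discs after 8 min in water. It was taken up by 6 of the 96 libraries of the time course, 3 of each group, chosen by the genotype, treatment and time in their titles. Every library came from 5-week-old plants grown in short days, whose leaf discs were infiltrated with water and kept in water for many hours before the liquid was changed for flg22 or fresh water. The wild type was Col-0, from which 60 min flg22 and 8 min water libraries were used as well, and npr1-1 libraries at the other flg22 times (8, 15, 30, 45, 120 and 180 min) were used for the course of a gene. Water libraries were made at 8 min only, so that flg22 and the longer time in the dish cannot be told apart in this comparison. The level of a gene is given in TPM, here tags per 1000000 tags of a library after TMM normalisation. In EXPRSS Tag-seq, 1 tag is read near the 3′ end of each transcript with its strand kept, so that levels need no scaling by gene length.

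The peptide flg22 is a conserved stretch of bacterial flagellin. In leaves it is bound by the receptor kinase FLS2, which joins its co-receptor BAK1 and passes the signal through cytoplasmic kinases, calcium influx, an oxidative burst and MAP kinases to a large change in transcription, the state called pattern-triggered immunity (PTI). NPR1 is a receptor and transcriptional co-activator of salicylic acid signalling, which works with TGA transcription factors to switch on the pathogenesis-related (PR) genes and systemic acquired resistance. The npr1-1 allele carries a missense mutation in the ankyrin repeats of NPR1, and plants with it do not induce PR1 in response to salicylic acid. The transcript is still made in npr1-1, and its level does not check the genotype. The genotype was therefore taken from the labels, and plants of a single mutant line stand for loss of NPR1 function.

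The 6 libraries held 1148918 to 2040519 tags, so that 1 tag was worth 0.439 to 0.844 TPM. Libraries of one group had Pearson correlations of 0.957 to 0.975 across genes (log10 scale), and their scatter was 5.82 to 9.65 times counting error, as the chi-square per degree of freedom. The plastid 23S rRNA took 8.89% to 12.1% of the tags in the 60 min flg22 libraries and 17.4% to 23.2% in the water libraries. Its part in the results was not tested, apart from a fit without organelle loci. Of 22 nuclear photosynthesis genes that mark leaf tissue all passed the filter on low counts. Transcripts of root, pollen and seed markers summed to 0.844 to 2.68 TPM at 60 min and to 7.03 to 10.6 TPM in water, and 3 of these 5 markers had no tag in any of the 6 libraries.

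By edgeR's quasi-likelihood test (Benjamini-Hochberg adjusted p under 0.01), 5872 of 14569 tested sense genes were called in npr1-1, which is 40.3%. Higher levels at 60 min of flg22 were called for 2472 genes (17%) and lower levels for 3400 (23.3%). The median log2 change was 2.34 among the genes that rose and -2.12 among those that fell, with 1492 genes up and 1867 down at least 4-fold. At least 16-fold changes were called for 475 genes that rose and 398 that fell. Genes called higher took 40.7% to 43% of all tags in the 60 min flg22 libraries and 5.79% to 8.66% in the water libraries, whereas genes called lower took 4.82% to 7.24% and 21.3% to 27.3% of tags in the same groups. The median change over all tested genes was -0.28, and the balance between rises and falls moved with the scaling. Of the calls, 42.1% were rises as reported, 34.5% with scaling to total tags (median change -0.491), 51.4% without organelle loci (median change -0.0823) and 53.1% when the 6 libraries were fitted alone. Leaving out any 1 of the 6 libraries gave 47.8% to 57.1% rises, all above the 42.1% reported. The filter and scaling were redone in these fits, with 14958 to 14988 genes tested against 14569. The part of a single library therefore cannot be told apart from theirs. The count of falls was 1936 without flg22 replicate 3, 2163 without flg22 replicate 1 and 2168 without water replicate 2, and 2256 and 2374 without water replicates 3 and 1. A replicate block gave 6958 calls. The replicates of one group and the other did not overlap for 58.6% of all tested genes, and 81 called genes had overlapping groups. As tissue discs were sampled in bulk, fewer cells of a type and less RNA per cell cannot be told apart.

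Across the npr1-1 time course, 835 of the 2472 genes called higher had their highest mean level at 60 min (33.8%), 599 at 45 min and 300 at 30 min, whereas 306 and 335 were highest at 120 and 180 min. Of the 3400 genes called lower, 1111 were lowest at 60 min (32.7%), 835 at 120 min and 798 at 180 min. These counts describe genes that were called at 60 min, and no test was made of them. Among the 3 water libraries, replicate 2 was the lowest for 1440 of the 2472 genes that rose and the highest for 1868 of the 3400 that fell. Without water replicate 2, 4680 genes were called, 2512 of them higher.

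Among the 10 largest rises was CYP82C3 (AT4G31950), a cytochrome P450 gene, with 324, 233 and 352 TPM after 60 min of flg22 against 0.483, 0 and 0 TPM in water. From the tags pooled within each group, 1385 against 1, the ratio was 1750 (exact 95% counting interval 314 to 69300), and the log2 change was 10.13 ± 0.72 (SE, adjusted p = 4.96e-19). XTH18, a xyloglucan endotransglucosylase of the cell wall, was at 982, 508 and 673 TPM against 1.45, 0.754 and 0.439 TPM (log2 change 9.53 ± 0.59, adjusted p = 2.27e-22). All 3 flg22 libraries lay far above all 3 water libraries for both genes.

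PROPEP3, the precursor of a danger peptide sensed by PEPR receptors, averaged 1300 ± 516 TPM at 60 min and 2.3 ± 1.99 TPM in water (SD, n = 3 each). It was the most abundant of the 10, and replicate 2 of the flg22 libraries, at 714 TPM, had less than the other 2 at 1540 and 1660 TPM. The transcription factor genes WRKY30 and WRKY55 were both among the 10. WRKY30 was at 481, 337 and 376 TPM against 0.965, 0 and 1.32 TPM, and WRKY55 was at 44, 23.6 and 47.5 TPM against 0 tags in all 3 water libraries. If the 3 water libraries together held 3 tags, the limit that a count of 0 allows, WRKY55 was at least 75.1-fold higher at 60 min. The same limit put AT3G48450 at least 160-fold, AT3G12910 at least 81-fold and AT5G56960 at least 75.5-fold higher, all with 0 tags in water. DMP1, a membrane protein linked to senescence, averaged 261 ± 24.8 TPM against 0.483 ± 0.836 TPM, and AT1G13520 averaged 591 ± 226 TPM against 0.761 ± 0.682 TPM (SD, n = 3 each).

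All 10 largest falls had 0 tags in the 3 libraries at 60 min, so that only lower bounds can be given. AT1G07050 was at 66.6, 112 and 71.2 TPM in water and was at least 118-fold lower at 60 min. BBX14, a B-box zinc finger protein, was at least 82.9-fold lower than its 45.4, 65.6 and 58.9 TPM in water. BR6OX2, the last enzyme of brassinosteroid synthesis, was at 0 tags after flg22 and at 17.9, 50.5 and 40.9 TPM in water, at least 51.9-fold lower. RVE2, a MYB factor related to the circadian clock, was at least 30.8-fold lower. Its water libraries were at 10.6, 52.8 and 11 TPM, so that replicate 2 held most of its tags. Among the others, AT2G03550, AT5G62140, AT3G19850, the ferric reductase gene FRO7, ROPGEF1 and AT5G47610 were at least 32.9-fold to 53.2-fold lower.

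**Figure D1:**
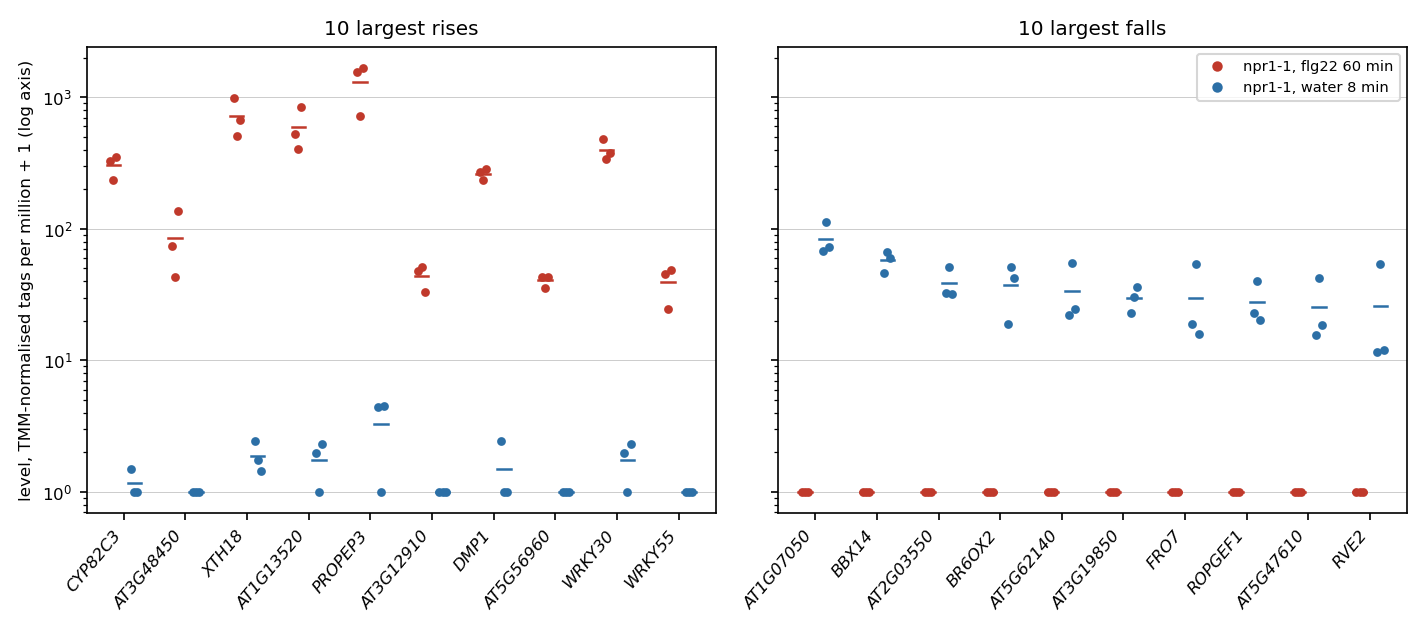
Levels (TPM + 1, log axis) of the 10 genes with the largest rises (left) and the 10 with the largest falls (right) in each npr1-1 library, flg22 60 min left of water for each gene. Points are the 3 libraries of a group and bars their mean. For the falls every flg22 library is at 0 tags (1 on this axis), and FRO7, AT5G47610 and RVE2 have 1 water library well above the other 2.

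In abundance, the leading genes with at least a 4-fold change were the glutathione S-transferases GSTF6 and GSTF7 and the blue copper-binding protein BCB among those that rose. GSTF6 was at 9450, 7180 and 12700 TPM at 60 min against 1390, 416 and 1220 TPM in water, and BCB was at 6990, 6100 and 8030 TPM against 1530, 862 and 950 TPM. GSTF7 averaged 6220 ± 1770 TPM against 546 ± 253 TPM (SD, n = 3 each). GSTF6 and GSTF7 are close copies whose tags may have been shared between them, so their separate levels are uncertain. Among the falls, AT2G45180 averaged 622 ± 305 TPM against 3250 ± 235 TPM, RBCS2B, a subunit of Rubisco, 665 ± 507 TPM against 3350 ± 1310 TPM, and the gibberellin-regulated GASA1 687 ± 255 TPM against 2760 ± 1210 TPM. The call of GASA1 was lost without water replicate 2 (adjusted p = 0.0234) and without flg22 replicate 3 (adjusted p = 0.0252).

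Genes for flg22 perception and other pattern receptors rose together. Of 20 tested members of the receptor list 18 were called higher and none lower, beside 17% and 23.3% over all tested genes. The median log2 change was 2.65, beside -0.28 for all tested genes. The receptor gene FLS2 (AT5G46330) itself was at 91.7, 116 and 60.7 TPM after 60 min of flg22, against 37.2, 15.1 and 29.4 TPM in water (log2 change 1.69 ± 0.42, adjusted p = 5.62e-04). Its co-receptor BAK1 was at 273, 319 and 262 TPM against 45.4, 21.9 and 35.6 TPM, and the cytoplasmic kinase BIK1, which is released from the receptor complex, was at 224, 251 and 237 TPM against 48.8, 30.2 and 28.1 TPM. Both sets of libraries were well apart, with log2 changes of 3.04 ± 0.27 for BAK1 and 2.72 ± 0.22 for BIK1.

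The extra-large G protein XLG2 and the chitin receptor CERK1 had the largest rises of the receptor list. XLG2 averaged 110 ± 31 TPM against 5.85 ± 3.28 TPM, a log2 change of 4.15 ± 0.35, and CERK1 averaged 252 ± 54.9 TPM against 18.1 ± 4.98 TPM, a log2 change of 3.77 ± 0.34 (SD, n = 3 each). SERK4, a relative of BAK1, was at 168 ± 36.8 TPM against 12.7 ± 5.42 TPM. The Pep receptor gene PEPR1 was at 77.2 ± 21.5 TPM against 5.51 ± 2.9 TPM, beside the rises of its ligand precursors described further on. FER, a receptor of RALF peptides, had the smallest called rise (log2 change 0.67 ± 0.2, adjusted p = 0.00411), and that call was lost in 4 of 15 alternative fits, among them scaling to total tags (adjusted p = 0.0984). The receptor-like protein RLP23 and the kinase BSK1 were not called, with log2 changes of 1.01 ± 1.02 and -0.47 ± 0.21.

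Of 22 genes for calcium signalling, the oxidative burst and MAP kinases, 15 rose and 3 fell (17% and 23.3% over all tested genes). MPK11, a MAP kinase, was at 264, 167 and 207 TPM at 60 min of flg22 against 0.965, 0 and 0.439 TPM in water. From the tags pooled within each group, 987 against 3, the ratio was 416 (exact 95% counting interval 142 to 2020). RBOHD, the oxidase that makes the apoplastic burst, was at 320, 265 and 283 TPM against 20.8, 25.6 and 12.7 TPM (log2 change 3.89 ± 0.29, adjusted p = 1.32e-18). The MAP kinase kinase gene MKK4 averaged 140 ± 26.1 TPM against 9.46 ± 2.33 TPM. Its substrates rose as well, with MPK3 at 232 ± 96.4 TPM against 80.6 ± 13.2 TPM (log2 change 1.52 ± 0.28) and MPK6 at 69.6 ± 6.27 TPM against 25.9 ± 5.62 TPM (log2 change 1.41 ± 0.22; SD, n = 3 each).

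The 3 falls in that list included both cyclic nucleotide-gated channels in it. DND1 (CNGC2) was at 2.68, 0 and 1.4 TPM at 60 min, against 49.2, 48.2 and 58.9 TPM in water (log2 change -5.01 ± 0.57, adjusted p = 1.4e-11). CNGC4 averaged 5.49 ± 2.57 TPM against 38.3 ± 6.8 TPM, and the MAP kinase kinase MKK9 7.14 ± 4 TPM against 27.9 ± 7.23 TPM (SD, n = 3 each). The 2 channels are known to act together in calcium entry during immunity, and loss of either gives dwarf plants with raised salicylic acid.

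Genes known to restrain the response were mostly higher as well, with 13 of 18 rises and 2 falls (17% and 23.3% over all tested genes). MLO6, a membrane protein of the powdery mildew susceptibility family, was at 437, 447 and 449 TPM against 5.31, 0.754 and 6.15 TPM (log2 change 6.63 ± 0.48, adjusted p = 1.68e-19). NUDT7, a hydrolase that limits EDS1-dependent signalling, averaged 872 ± 175 TPM against 45.1 ± 24.1 TPM (log2 change 4.26 ± 0.38). The 3 ubiquitin ligases PUB22, PUB23 and PUB24 rose with log2 changes of 3.29 (PUB22) to 4.0 (PUB23), and CPK28, a kinase that promotes turnover of BIK1, averaged 180 ± 54.4 TPM against 11.6 ± 0.879 TPM (SD, n = 3 each). The falls were AT1G27190, at 1.07, 0 and 2.79 TPM against 9.65, 10.6 and 8.35 TPM, and the MAP kinase phosphatase MKP2, at 6.72 ± 3.14 TPM against 24 ± 0.282 TPM. PUB13, an E3 ligase of FLS2, was not called (log2 change 0.01).

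Of 12 early PTI markers 10 rose and 2 were not called, beside 17% called higher over all tested genes. The largest rises were those of AT1G26380, at 2240, 1850 and 2010 TPM after 60 min of flg22 against 14, 3.02 and 6.59 TPM in water, and of YLS9 (NHL10), at 627, 474 and 787 TPM against 3.86, 0 and 3.08 TPM. Their log2 changes were 7.95 ± 0.74 and 7.89 ± 0.57. FRK1, a receptor kinase used widely as a PTI reporter, averaged 1250 ± 375 TPM against 110 ± 70.1 TPM, and WRKY33 averaged 813 ± 116 TPM against 32.1 ± 13.2 TPM (SD, n = 3 each). PHI-1 and the deadenylase gene CAF1a were the 2 not called, with 11.6 ± 4.48 TPM against 6.2 ± 1.45 TPM and 24.7 ± 11.2 TPM against 39.2 ± 10.6 TPM. Both had stood higher earlier in the course, PHI-1 at 291 TPM at 30 min and CAF1a at 505 TPM at 15 min (means of 3 libraries).

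Of 20 members of the list on salicylic acid synthesis and the EDS1 node, 15 passed the filter. Of these 9 rose, 6 were not called and none fell, beside 17% called higher over all tested genes. The median log2 change was 2.07. EDS16 (ICS1), the isochorismate synthase that makes most of the pathogen-induced salicylic acid, was at 73.5, 47.2 and 45.4 TPM after flg22, against 8.69, 8.29 and 5.71 TPM in water (log2 change 2.88 ± 0.7, adjusted p = 4.29e-04). EDS5, the transporter that exports isochorismate from the plastid, was at 58.5, 70.9 and 76.8 TPM against 4.34, 0.754 and 6.59 TPM (log2 change 3.99 ± 0.41). In both genes all flg22 libraries lay above all water libraries.

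CBP60G, a calmodulin-binding activator of EDS16, had the largest rise of the list, at 374, 239 and 250 TPM against 28.5, 3.02 and 8.79 TPM (log2 change 4.36 ± 0.47, adjusted p = 1.29e-12). Its partner SARD1 was at 23.6 ± 7.6 TPM against 10.3 ± 3.68 TPM and was not called (adjusted p = 0.0149), although 8 of the 15 alternative fits called it higher, among them the replicate block (adjusted p = 0.0049). PBS3, which conjugates isochorismate with glutamate, was at 61.7, 11 and 18.8 TPM against 5.79, 0 and 2.2 TPM. Its call was lost without flg22 replicate 1, the highest library (adjusted p = 0.0115). Of the EDS1 node, EDS1 averaged 60.8 ± 24 TPM against 6.37 ± 2.17 TPM, PAD4 38.9 ± 21.1 TPM against 6.3 ± 3.91 TPM and SAG101 105 ± 21.9 TPM against 24.7 ± 12.1 TPM (SD, n = 3 each).

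Genes of the N-hydroxypipecolic acid branch, which serves systemic resistance, were close to the detection limit. FMO1 averaged 1.21 ± 0.598 TPM against 1.05 ± 1.1 TPM and ALD1 1.11 ± 1.48 TPM against 0.866 ± 0.106 TPM (SD, n = 3 each), and a difference was not detectable at this depth. UGT76B1, a glycosyltransferase for salicylic and isoleucic acid, was at 3.44 ± 0.882 TPM against 9.51 ± 1.06 TPM (adjusted p = 0.027). EPS1, which releases salicylic acid from its conjugate, did not pass the filter, with 0 tags at 60 min and 23 tags over the water libraries, at least 6.06-fold lower.

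NPR1 (AT1G64280) was at 89, 67.5 and 92.1 TPM after 60 min of flg22, against 19.3, 15.8 and 22.8 TPM in water. The 3 flg22 libraries were all above the 3 water libraries, by a log2 change of 2.08 ± 0.25 (adjusted p = 3.77e-11). In Col-0 the means were 91.8 ± 6.84 TPM at 60 min and 18.6 ± 4.91 TPM in water (SD, n = 3 each). The change in npr1-1 less that in Col-0 was -0.21 ± 0.34 (log2, SE).

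Over the whole list of the NPR1 family, its partners and its output, 27 genes in all, 26 were tested, of which 7 rose and 3 fell, a share close to the 40.3% called over all tested genes. The median log2 change was 0.00, above the -0.28 of all genes. The family member AT4G26120 was at 42.9, 36.3 and 53 TPM against 0.483, 0.754 and 1.76 TPM, a log2 change of 5.27 ± 0.58 (adjusted p = 3.62e-12). NPR3, a salicylic acid receptor that represses defence genes, was at 59.5, 43.9 and 51.6 TPM against 12.1, 6.78 and 9.66 TPM (log2 change 2.41 ± 0.29). NPR4, the other receptor with that role, was at 6.44, 8.44 and 9.07 TPM against 11.6, 4.52 and 8.79 TPM and was not called. Thus the groups were apart for NPR3 and overlapped for NPR4.

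The NIMIN proteins bind NPR1 and modulate it. NIMIN1 was at 20.9, 10.1 and 20.2 TPM against 0.965, 0 and 0 TPM, and with 80 tags against 2 the ratio was 50.6 (exact 95% counting interval 13.6 to 425). NIMIN-2 was at 26.3, 12.7 and 44.7 TPM against 9.17, 2.26 and 8.35 TPM (log2 change 2.00 ± 0.51, adjusted p = 7.59e-04). NIMIN-3 went the other way, with 2.68, 6.75 and 3.49 TPM against 14, 12.8 and 18 TPM. It fell by 1.85 on the log2 scale (SE 0.52, adjusted p = 0.00241), and the call was lost in 5 of the 6 fits that left out 1 library (adjusted p up to 0.0739). The thioredoxin gene TRX5, whose product reduces the NPR1 oligomer, rose to 432 ± 105 TPM, against 115 ± 38.5 TPM in water, while TRX3 was at 1270 ± 198 TPM against 1030 ± 250 TPM and was not called (SD, n = 3 each).

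Of the TGA factors that carry NPR1 to promoters, TGA7 and TGA6 fell and none rose. TGA7 was at 3.22, 5.9 and 3.49 TPM after flg22, against 35.7, 27.9 and 36.5 TPM in water, a log2 change of -3.01 ± 0.4 (adjusted p = 1.18e-09). TGA6 was at 2.15, 1.69 and 2.09 TPM against 9.65, 12.1 and 8.79 TPM. TGA3 was at 56.3 ± 16 TPM against 31.8 ± 4.18 TPM (SD, n = 3 each) and was not called, although 3 alternative fits called it higher, among them the replicate block (adjusted p = 0.00702). TGA1 was called lower in 2 alternative fits, with the replicate block (adjusted p = 0.00772) and with scaling to total tags (adjusted p = 0.00769).

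Among the output genes of the pathway, PR1, BGL2, PR5, WRKY38 and WRKY62 were scarce in both npr1-1 groups. PR1, the standard marker of NPR1-dependent signalling, had 0 tags in all 6 npr1-1 libraries. In Col-0 it averaged 25.2 ± 40.9 TPM at 60 min and 2.98 ± 3.46 TPM in water (SD, n = 3 each), with libraries that differed widely, and was not called there either (adjusted p = 0.022). BGL2 (PR2) had 2 tags in each npr1-1 group, PR5 was at 2.66 ± 1.1 TPM against 3.61 ± 3.18 TPM, and WRKY38 had no tag in any of the 6 libraries. WRKY62 was at 1.61, 3.37 and 3.49 TPM against 0.483, 0 and 0 TPM. Its ratio, from 12 tags against 1, was 15.2 (exact 95% counting interval 2.25 to 649), and the call was lost by DESeq2 (adjusted p = 0.0107). WRKY70, which responds to salicylic acid, was at 4.29, 5.9 and 1.4 TPM against 15.4, 18.8 and 6.59 TPM and was not called, although 4 alternative fits called it lower, among them the replicate block (adjusted p = 0.00255). WRKY54 was called lower in the replicate block alone (adjusted p = 0.00666) and had 2 tags at 60 min against 19 in water. GRX480 leaned the other way, with log2 changes of 2.51 to 4.4 over the alternative fits. It was called in none of them (adjusted p 0.0186 to 0.124), and WRKY18 was tested and not called as reported.

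**Figure D2:**
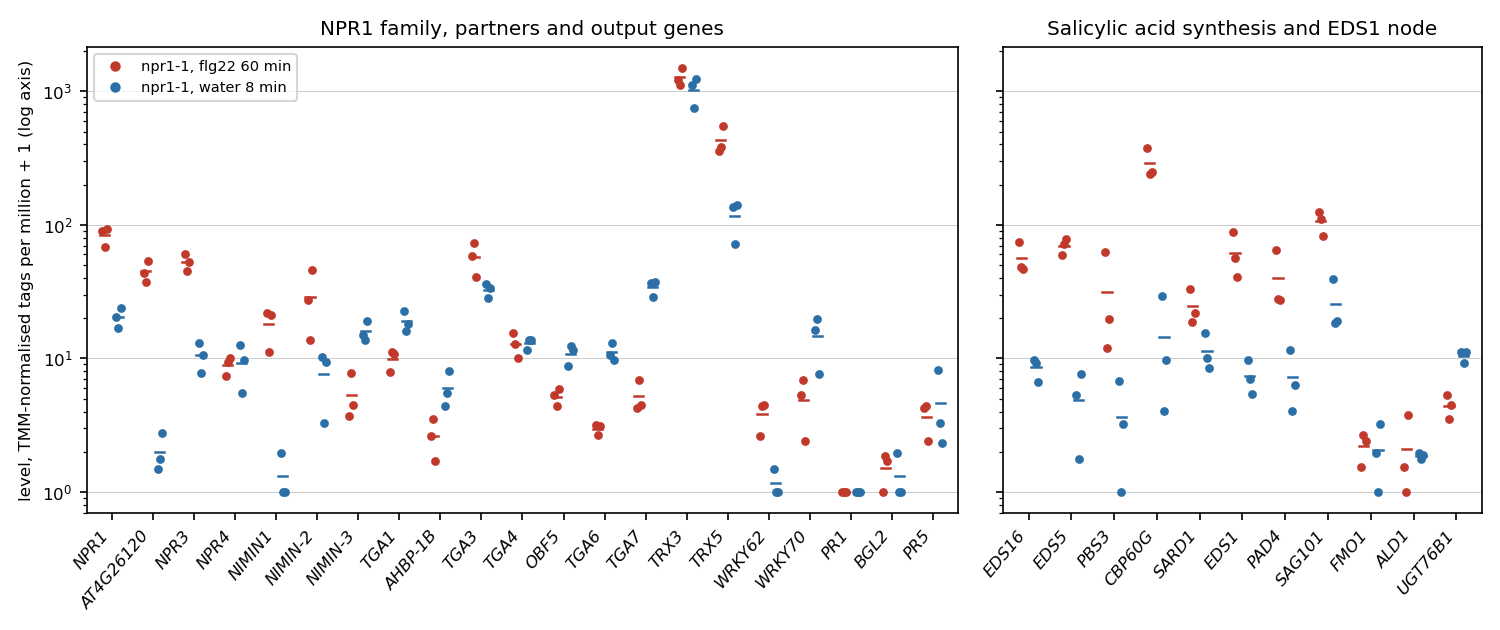
Levels (TPM + 1, log axis) of genes of the NPR1 family, its partners and output (left) and of salicylic acid synthesis and the EDS1 node (right) in each npr1-1 library, flg22 60 min left of water for each gene. Points are the 3 libraries of a group and bars their mean. NPR1, NPR3 and AT4G26120 have flg22 libraries above all water libraries, TGA6 and TGA7 below them, and PR1 is at 0 tags (1 on this axis) throughout.

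Genes for folding and secretion in the endoplasmic reticulum include targets of NPR1 in salicylic acid signalling. Of 19 tested members of 20, 5 rose and none fell, beside 17% called higher and 23.3% called lower over all tested genes. The median log2 change was 0.54, beside -0.28 for all tested genes. With a replicate block 9 were called, 7 of them higher, beside 2870 of 14569 tested genes called higher and 4088 called lower in that fit. BZIP60, a transcription factor of the unfolded protein response, was at 570, 375 and 639 TPM against 63.2, 21.9 and 46.6 TPM (log2 change 3.57 ± 0.37, adjusted p = 2.78e-13). The chaperone gene BIP2 was at 678, 371 and 331 TPM against 182, 76.1 and 116 TPM, with a log2 change of 1.88 ± 0.45. Calreticulin gene CRT3, needed for the EFR receptor, averaged 91.7 ± 37.3 TPM against 30.9 ± 7.73 TPM, and its call was lost without flg22 replicate 2 (adjusted p = 0.0113). CNX1 (calnexin), SHD (an HSP90 of the reticulum) and UNE5 (a disulfide isomerase) were not called, at 534 ± 73.3 TPM against 296 ± 120 TPM, 202 ± 64.9 TPM against 291 ± 118 TPM and 145 ± 26.6 TPM against 162 ± 47.4 TPM (SD, n = 3 each).

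Of 30 ethylene genes 28 were tested, of which 9 rose and 5 fell, beside 17% called higher and 23.3% called lower over all tested genes. The synthase gene ACS6, a target of the MAP kinases, was at 194, 180 and 178 TPM at 60 min against 21.2, 9.8 and 11.9 TPM in water (log2 change 3.66 ± 0.34). The largest rises were in the transcription factor genes ABR1, at 97.1, 108 and 112 TPM against 3.38, 2.26 and 2.2 TPM, and ERF6, at 128, 55.7 and 131 TPM against 12.6, 0.754 and 3.51 TPM. EIN2, the membrane protein at the centre of ethylene signalling, was at 2.15, 3.37 and 3.49 TPM against 22.2, 26.4 and 18.9 TPM (log2 change -2.89 ± 0.46, adjusted p = 2.1e-07). ORA59, which combines ethylene and jasmonate signals, had the largest fall (log2 change -3.62 ± 0.54), and the EIN3 relative EIL1 fell by 2.31 on the log2 scale (SE 0.51). ERF104, a substrate of MPK6, fell to 3.51 ± 2.08 TPM, against 27.6 ± 10.1 TPM in water (SD, n = 3 each), after a mean of 258 TPM at 15 min.

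In the jasmonate list of 31 genes, 29 were tested, of which 12 rose and 4 fell, beside 17% called higher and 23.3% called lower over all tested genes. LOX4, a lipoxygenase of jasmonate synthesis, was at 560, 479 and 377 TPM against 8.69, 2.26 and 0.439 TPM, a log2 change of 6.90 ± 0.45 (adjusted p = 2.8e-21). The repressor gene JAZ5 was at 23.1, 21.1 and 37 TPM against 0, 0.754 and 0 TPM, and from 121 tags against 1 its ratio was 153 (exact 95% counting interval 27 to 6100). JAZ1, another repressor, averaged 602 ± 56.4 TPM against 55.9 ± 18 TPM. The receptor gene COI1 and the gene of the conjugating enzyme JAR1 fell, COI1 at 7.54 ± 4.97 TPM against 21.8 ± 1.41 TPM and JAR1 at 11.9 ± 5.06 TPM against 43.5 ± 8.08 TPM (SD, n = 3 each). The call of COI1 was lost in 3 alternative fits, among them that of the 6 libraries alone (adjusted p = 0.0162). AOS and LOX2, which act in the same route to jasmonate, were not called, with log2 changes of -0.15 and -0.03. The storage protein VSP2, a late jasmonate marker, had 4 tags against 1.

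Of 24 tested members of 25 that make tryptophan, camalexin and indole glucosinolates, 19 rose and none fell (17% and 23.3% over all tested genes). The median log2 change was 3.06. Together the list took 17490 to 20200 TPM in the 60 min flg22 libraries, against 1678 to 3299 TPM in water. PEN3, a transporter, was at 3510, 3160 and 2390 TPM against 459, 214 and 266 TPM, and PEN2, the myrosinase that activates indole glucosinolates, was at 2350, 2130 and 2160 TPM against 196, 149 and 175 TPM. Camalexin enzymes were at lower levels with larger changes. CYP71A12 was at 694, 612 and 1390 TPM against 12.1, 9.05 and 8.79 TPM, and PAD3, which makes the last step, was at 117, 121 and 193 TPM against 4.83, 0 and 0 TPM (log2 change 6.29 ± 0.95, adjusted p = 5.57e-08).

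CYP81F2, which modifies indole glucosinolates, averaged 1230 ± 31 TPM against 16.1 ± 15.5 TPM, and the methyltransferase IGMT2 averaged 2100 ± 417 TPM against 23.3 ± 17.7 TPM. IGMT2 has close copies that may share its tags. In primary metabolism, the tryptophan synthase gene TSB1 was at 1350 ± 165 TPM against 214 ± 46 TPM, and CYP79B2, which leads tryptophan into these routes, was at 452 ± 55.9 TPM against 60.3 ± 31.1 TPM (SD, n = 3 each). CYP82C2 was at 13.4, 17.7 and 53 TPM against 1.93, 0 and 1.32 TPM, and its call was lost in 4 of the 6 fits without 1 library, with the highest adjusted p without flg22 replicate 3 (0.0427).

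Of 24 phenylpropanoid, monolignol and flavonoid genes 18 were tested, of which 7 rose and 1 fell, beside 40.3% called over all tested genes. Without organelle loci 12 of 17 were called, 11 of them higher, beside 5638 of 14216 tested genes called in that fit, 2897 of them higher. OMT1, FAH1 and CAD5, of monolignol synthesis, were each called higher in 6 of 15 alternative fits. CCR2, a cinnamoyl-CoA reductase linked to defence, was at 178, 86.9 and 142 TPM after flg22 against 0.965, 0 and 0.879 TPM in water (log2 change 7.42 ± 0.64, adjusted p = 2.13e-16). The first enzyme gene PAL1 was at 875, 445 and 603 TPM against 88.3, 47.5 and 38.7 TPM, and PAL2 averaged 481 ± 138 TPM against 19.7 ± 2.66 TPM. C4H, the second step, averaged 1270 ± 384 TPM against 261 ± 67.1 TPM. ATCAD4, a cinnamyl alcohol dehydrogenase of lignin synthesis, fell to 23.7 ± 12.4 TPM, against 136 ± 15.2 TPM in water (log2 change -2.49 ± 0.35; SD, n = 3 each). The flavonoid genes TT4 and TT5 were not called, with log2 changes of -1.46 and -0.53.

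Of 8 peptide precursors 7 were tested, of which 5 rose and 1 fell (17% and 23.3% over all tested genes). Besides PROPEP3, PROPEP2 was at 365, 321 and 634 TPM against 5.31, 0.754 and 0.879 TPM (log2 change 7.44 ± 0.69), and PROPEP1 averaged 65.6 ± 24.4 TPM against 3.07 ± 0.996 TPM. PSK4, the precursor of phytosulfokine, averaged 293 ± 85.7 TPM against 48.2 ± 6.45 TPM (SD, n = 3 each). RALF23, whose peptide acts through FER to dampen immunity, was at 6.44, 1.69 and 0.698 TPM against 55.5, 118 and 69 TPM, a log2 change of -4.60 ± 0.54 (adjusted p = 4.95e-11). Its relative RALFL33 was at 68.1, 59 and 78.2 TPM against 75.8, 67.1 and 63.7 TPM, where the groups overlapped.

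**Figure D3:**
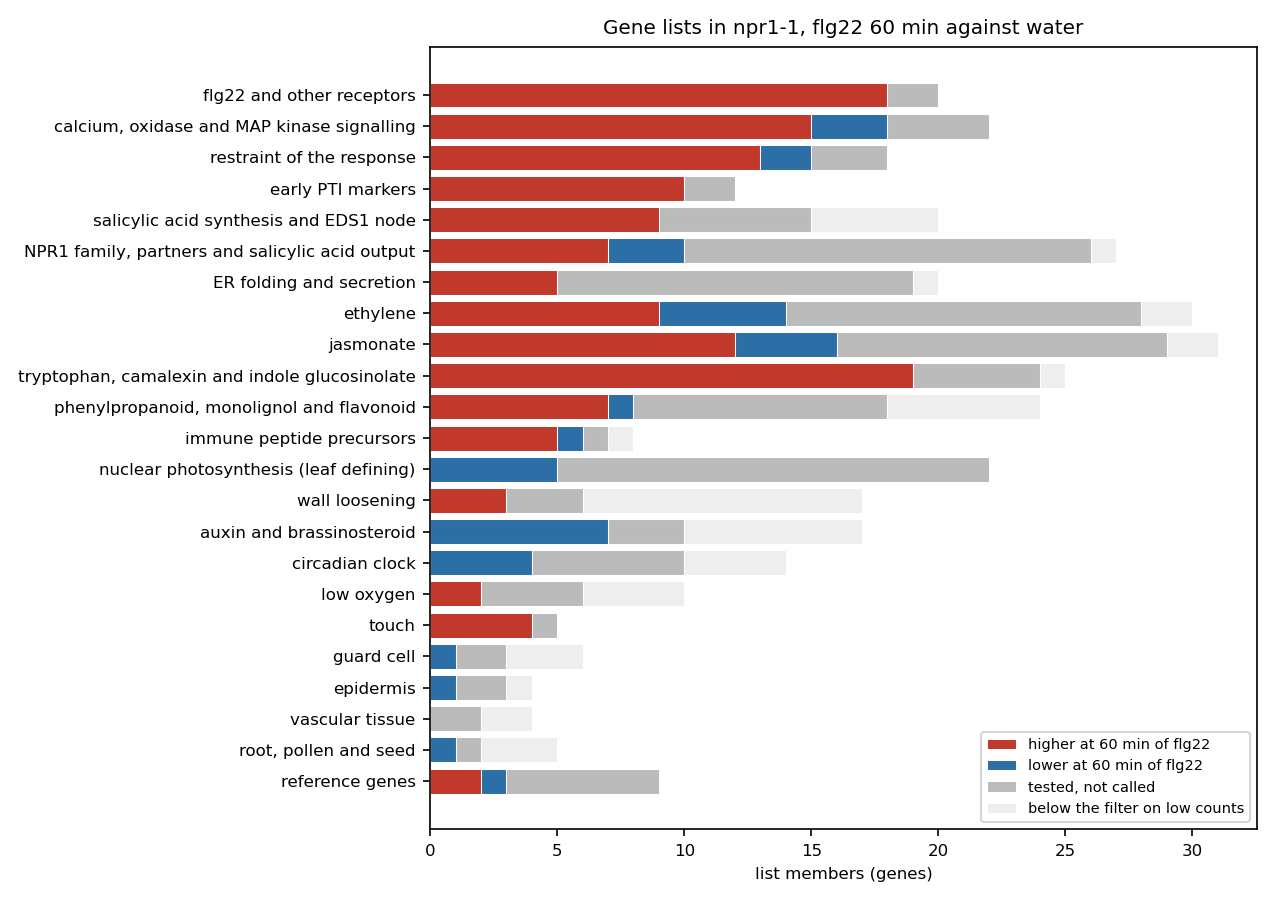
Number of genes in each list (horizontal axis) that were called higher at 60 min of flg22 than in water, called lower, tested but not called, or below the filter on low counts, in npr1-1. The receptor list has 18 of 20 members higher, the tryptophan list 19 of 25, and the photosynthesis and the auxin and brassinosteroid lists have falls only.

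Of 17 wall-loosening genes 6 were tested. XTH18, TCH4 and XTH24 rose and 3 were not called, beside 17% called higher over all tested genes. Without the filter 4 of 17 rose and 1 fell, with a median log2 change of -0.355. In that fit 2610 of 26545 genes were called higher and 2418 lower. Of 17 genes of auxin and brassinosteroid action 10 passed the filter. Of these 7 fell and none rose, beside 23.3% called lower over all tested genes. The median log2 change of the 10 was -3.17. A gene could pass the filter through the water libraries alone, which favours falls among those tested, and the 7 below the filter are not in these counts. DWF4 and CPD, enzymes of brassinosteroid synthesis, were at 0, 0 and 0.698 TPM against 10.1, 3.77 and 9.23 TPM and at 4.29, 5.06 and 2.79 TPM against 49.2, 81.4 and 43.1 TPM. The receptor gene BRI1 was at 0.536, 0.844 and 0 TPM after flg22 against 11.1, 10.6 and 11 TPM in water, so that water was 24.5 times higher (exact 95% counting interval 6.5 to 207, from 62 tags against 2). The transcription factor gene BZR1 and the auxin receptor gene TIR1 fell by 4.45 (SE 0.83) and 3.37 (SE 0.62) on the log2 scale. AFB3, another auxin receptor, lost its call in 10 of the 15 alternative fits.

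Of 22 nuclear photosynthesis genes 5 fell and none rose, a share close to the 23.3% called lower over all tested genes. With a replicate block 12 of the 22 fell, a larger share than the 4088 of 14569 tested genes called lower in that fit. The median log2 change of the list was -0.74. RBCS1B was at 769, 391 and 364 TPM against 2340, 4120 and 3490 TPM, and PSAD-1, of photosystem I, averaged 192 ± 104 TPM against 883 ± 44.7 TPM (SD, n = 3 each). Tags of RBCS1B may be shared with its close copies RBCS2B and RBCS3B. The most abundant member, RBCS1A, was at 10700, 4140 and 6270 TPM against 9290, 12400 and 10100 TPM, with overlapping groups. The list as a whole summed to 9737 to 29980 TPM at 60 min and to 30240 to 40650 TPM in water. Replicate 1 of the flg22 libraries had more of RBCS1B and PSAD-1 than the other 2, and 3 members were called when flg22 replicate 2, flg22 replicate 3 or water replicate 2 was left out. The calls of PSBP-1 and GAPA were lost in the fit of the 6 libraries alone (adjusted p = 0.0236 and 0.0401).

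Some lists bear on conditions other than flg22, and their counts stand beside 17% called higher and 23.3% called lower over all tested genes. Touch genes rose in 4 of 5 cases, among them TCH3, at 2890, 2440 and 2470 TPM against 275, 123 and 136 TPM, and TCH4, a wall enzyme, at 210, 137 and 132 TPM against 29.9, 9.05 and 6.59 TPM. The liquid was exchanged in both groups, 60 and 8 min before harvest, and its part in these changes was not tested. Of 6 tested low-oxygen genes 2 rose, LBD41 at 68.1, 40.5 and 48.2 TPM against 1.45, 1.51 and 1.32 TPM and AT5G15120 at 11.8, 3.37 and 16.7 TPM against 1.45, 0 and 0 TPM, whereas ADH1 was at 11.1 ± 5.38 TPM against 6.47 ± 5.38 TPM and was not called (SD, n = 3 each). Of 10 tested clock genes 4 fell, GI to 14.5, 5.06 and 3.49 TPM against 50.2, 31.7 and 25.9 TPM in water. ELF4 fell to 24.9 ± 6.8 TPM, against 88.7 ± 8.07 TPM. The falls of PCL1 and AT5G64170 were lost in 9 and 7 of the 15 alternative fits. That of GI was lost in 2 fits without 1 library (adjusted p up to 0.0103) and that of ELF4 without flg22 replicate 1 (adjusted p = 0.0138).

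Markers of other cell types and of reference transcripts are given beside these results. The guard cell regulator FMA was at 0.536, 0.844 and 0 TPM after flg22 against 5.31, 11.3 and 7.47 TPM in water, while KAT1 and TGG1, also of guard cells, were not called. KCS6 (CER6), a wax enzyme of the epidermis, was at 3.22, 5.06 and 0.698 TPM against 58.4, 95.7 and 29.9 TPM. The other 2 tested epidermis markers, ATML1 and GL2, were not called, although 2 alternative fits called GL2 lower. Summed over the list, epidermis markers were at 4.89 to 11 TPM against 44.4 to 112 TPM, and KCS6 made up most of the sum in water. Guard cell markers summed to 53.1 to 112 TPM against 79.2 to 110 TPM and vascular markers to 55.1 to 61.2 TPM against 55 to 73.4 TPM. Of the 2 vascular markers tested none was called. Of 9 reference genes 2 rose and 1 fell, beside 40.3% called over all tested genes. UBQ10 (2510 ± 506 TPM against 1120 ± 394 TPM) and GAPC1 (873 ± 311 TPM against 288 ± 62.3 TPM) rose. AT2G28390 fell with a call lost in 10 alternative fits, and 6 were not called. ACT2 was at 545 ± 102 TPM against 499 ± 63 TPM and PP2AA3 at 38.2 ± 9.26 TPM against 38.3 ± 3.32 TPM (SD, n = 3 each).

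To place the 60 min libraries in the course of the response, they were also set against npr1-1 at 30 min of flg22 and npr1-1 at 180 min against them. These comparisons share the 60 min libraries with the comparison to water. At 60 min 843 genes were called higher than at 30 min (5.79%) and 860 lower (5.9%), 1703 in all (11.7%). The number depended on the libraries fitted, with 862 calls without replicate 1 of 30 min and 1820 without replicate 3 of 30 min. It was 944 without replicate 3 of 60 min, 1034 without replicate 2 of 30 min and 2666 with the replicate block. The filter and scaling were redone in each fit without 1 library. At 180 min 1135 genes were called higher than at 60 min (7.79%) and 1371 lower (9.41%), 2506 in all (17.2%).

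Between 30 and 60 min the largest rises were those of HSFA2, a heat shock factor, TAT3, a tyrosine aminotransferase responsive to jasmonate, and MYB7. The call of TAT3 was lost in 3 of the fits without 1 library, with the highest adjusted p without 60 min replicate 3 (0.0306). HSFA2 was at 28.5 TPM at 15 min, 0.707 TPM at 30 min and 22.5 TPM at 60 min (means of 3 libraries), so that its rise began from a dip at 30 min. MYB7 likewise was at 3.51, 0.297 and 12.8 TPM at these times. The largest falls were AT2G36440, at 39 TPM at 30 min and 0.179 TPM at 60 min, AT2G03550 and AT1G20823. Both CYP71A12 and PAD3 were called higher at 60 min than at 30 min, with CYP71A12 at 80.3 TPM at 30 min and 898 TPM at 60 min and PAD3 at 9.77 and 144 TPM. In contrast WRKY33 fell between these times to 813 TPM, against 1740 TPM at 30 min, and MPK3 to 232 TPM, against 917 TPM at 30 min.

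From 60 to 180 min, genes for the endoplasmic reticulum were called higher in 14 of 19 cases, beside 7.79% over all tested genes. SHD was at 202 TPM at 60 min and 1840 TPM at 180 min, CNX1 at 534 and 2460 TPM and UNE5 at 145 and 621 TPM. FRK1 was at 349, 1250, 3170 and 2960 TPM at 30, 60, 120 and 180 min, although its step between 60 and 180 min was not called (log2 change 1.24 ± 0.5). C4H and PAL1 were called higher at 180 min, C4H at 3660 TPM and PAL1 at 1790 TPM. EDS16 was at 55.4 TPM at 60 min and at 126 and 140 TPM at 120 and 180 min, a step that was not called. NPR1 was highest at 60 min, with 82.9 TPM, and was at 47.7 and 55.6 TPM at 120 and 180 min.

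Of the 22 signalling genes, 7 were called lower at 180 min than at 60 min and 1 higher (9.41% and 7.79% over all tested genes). MPK11 was at 485 TPM at 45 min, 213 TPM at 60 min and 18.4 TPM at 180 min, and RBOHD at 422, 289 and 72.1 TPM at these times. The largest falls from 60 to 180 min were those of PP2-B14, FBA5 and AT5G28610, with AT5G28610 at 247 TPM at 60 min and 2.14 TPM at 180 min. The call of FBA5 was lost without 60 min replicate 1 (adjusted p = 0.168) and without each of the 3 libraries of 180 min. The largest rises were AT4G06744, AT1G29640 and the nitrate transporter gene NRT1.8, which all had been called lower at 60 min than in water. Those calls against water were each lost in 3 fits without 1 library for AT1G29640 (adjusted p up to 0.047) and NRT1.8 (up to 0.0247), in both cases highest without 60 min replicate 1. NRT1.8 was at 18.6 TPM in water, 2.86 TPM at 60 min and 120 TPM at 180 min. TGA7 was called higher at 180 min, at 20.8 TPM against 4.2 TPM at 60 min, whereas DND1 stayed at 2.96 TPM and was not called.

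**Figure D4:**
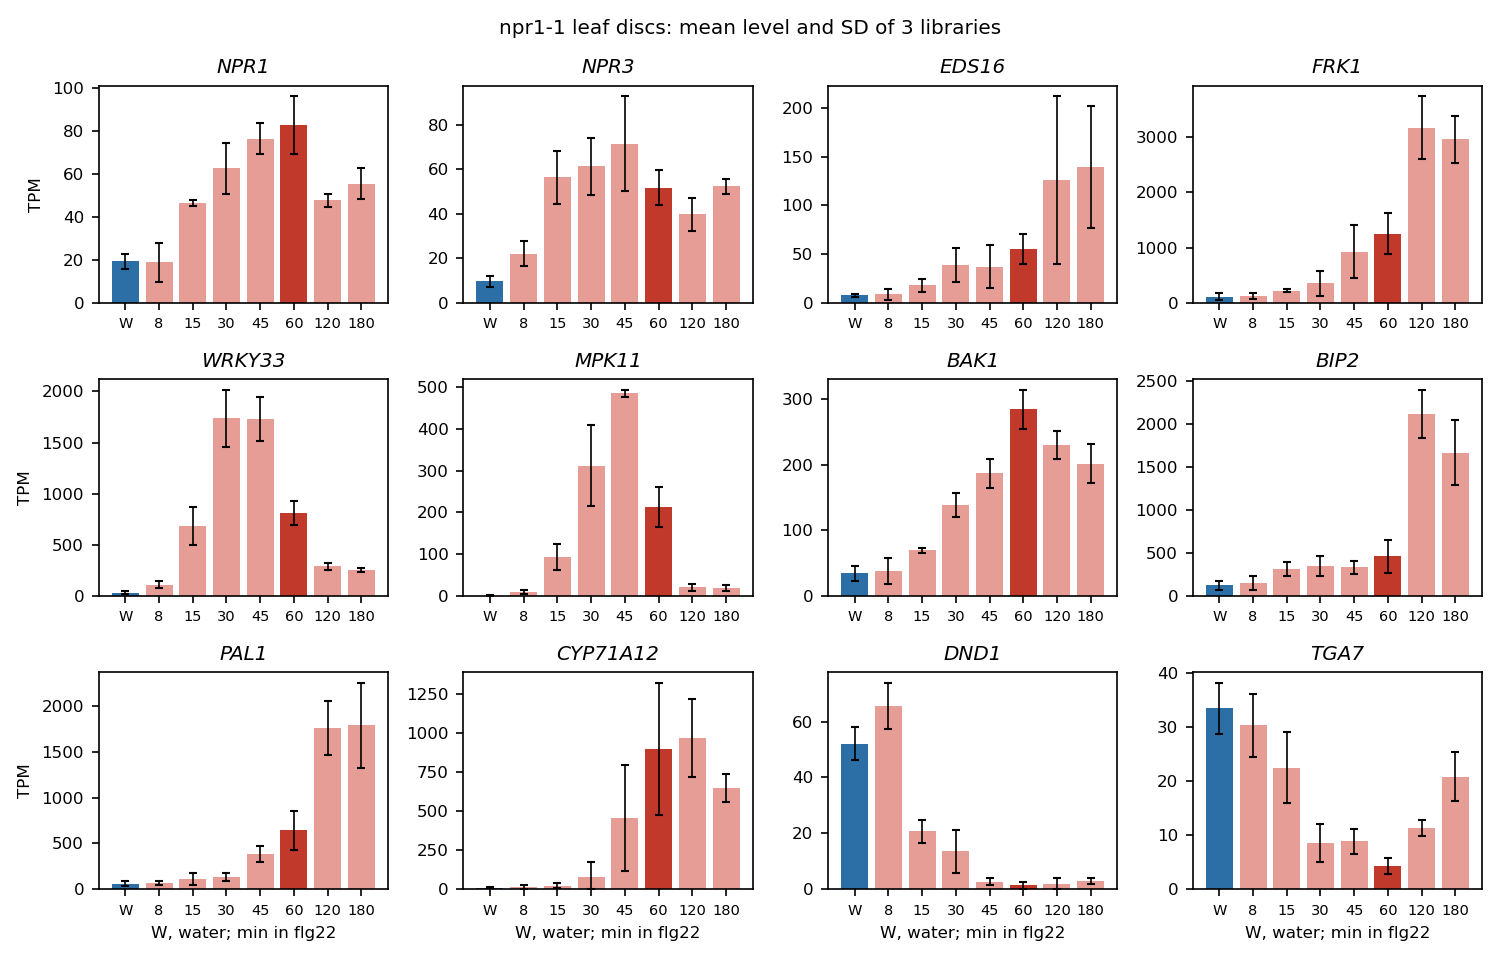
Mean level (TPM, linear axis from 0) with the SD of 3 libraries for 12 genes in npr1-1 leaf discs in water (W, 8 min) and after 8 to 180 min in flg22, with the 60 min group in dark red. WRKY33 and MPK11 are past their highest level at 60 min, NPR1 and BAK1 are at it, FRK1, BIP2 and PAL1 are below it, and DND1 and TGA7 are low.

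Whether loss of NPR1 function altered the response at 60 min was examined with the change in npr1-1 less the change in Col-0, as an interaction in the same model. Of 14569 genes 0 were called (0%) by edgeR, and 0 by DESeq2. Without adjustment 333 genes had p under 0.05, which is 2.29%, and the smallest p was 2.83e-04 (adjusted p = 1). For the 5872 genes called in npr1-1, the median size of the difference was 0.361 (log2) and its median SE was 0.614. A difference larger than 1 in size was estimated for 874 of them. At this precision, differences well above the typical SE also went uncalled, among them 2.03 ± 0.53 for TOPP9 and -1.73 ± 0.5 for TIFY7 (log2, SE). With the replicate block 517 genes had p under 0.05 by edgeR, and 0 were called. The 0 calls therefore do not show that the genotypes responded alike.

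In Col-0, which shares no library with npr1-1, 5666 genes were called at 60 min against water (38.9%), 2385 of them higher. Both genotypes had 4757 calls in the same direction and 0 in opposite directions, which is 81% of the calls in npr1-1 and 84% of those in Col-0. Of the 5872 genes called in npr1-1, 5859 had the same sign in Col-0, with median sizes of 2.22 in npr1-1 and 2.11 in Col-0 (log2). The Pearson correlation of the changes across 14569 genes was 0.93, as a description, since genes are not independent replicates. Samples of both genotypes were sequenced in different lanes of one flow cell, and the part of the lane was not tested.

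The genes with the smallest p in this comparison are named without a call. TOPP9, a protein phosphatase, averaged 56.7 ± 7.58 TPM against 1.33 ± 0.589 TPM in npr1-1 and 46.3 ± 3.28 TPM against 4.89 ± 2.6 TPM in Col-0, a difference of 2.03 ± 0.53 (log2, SE). TIFY7 (JAZ9) was at 13.8 ± 4.75 TPM against 41.3 ± 17.3 TPM in npr1-1 and at 38 ± 20.2 TPM against 33.4 ± 7.67 TPM in Col-0, a difference of -1.73 ± 0.5. The call of TIFY7 within npr1-1 was lost without water replicate 2 (adjusted p = 0.0457). AT2G15580, AT3G55020 and AT2G23520 had differences of 1.99, 2.07 and 4.755, the last with 0 tags at 60 min in Col-0. Among genes of the salicylic acid route, the difference was 1.07 ± 0.96 for EDS16, 0.07 ± 0.51 for EDS5, -0.33 ± 0.62 for CBP60G, 0.16 ± 0.4 for NPR3 and 0.19 ± 0.67 for NIMIN-2 (log2, SE). For early markers it was 0.46 ± 0.71 for FRK1, 0.73 ± 0.46 for WRKY33 and 0.23 ± 0.72 for YLS9.

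**Figure D5:**
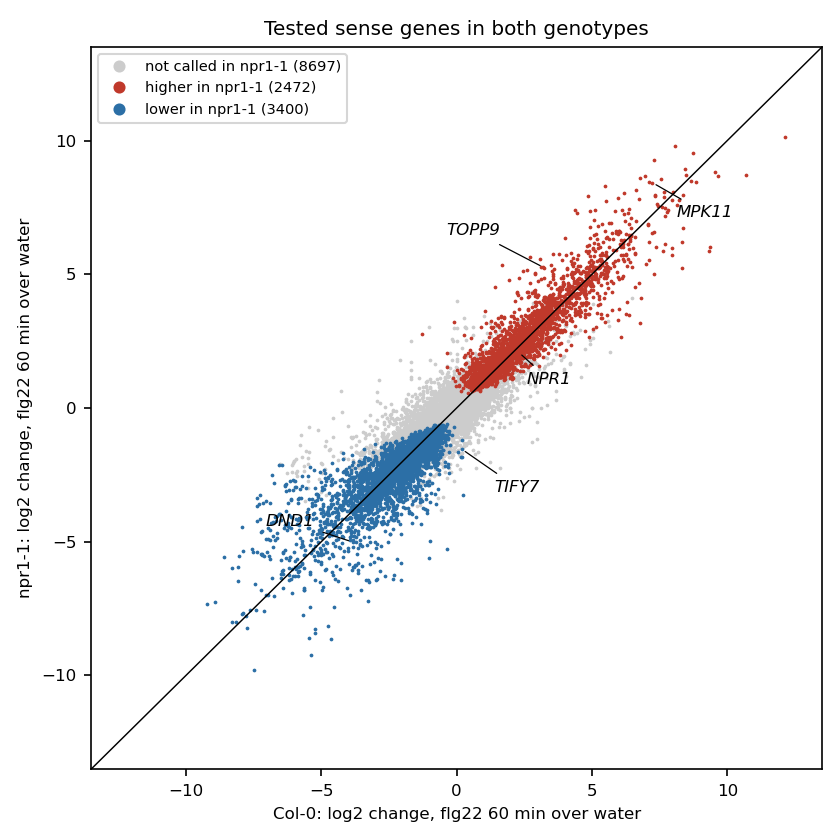
Log2 change at 60 min of flg22 over water for 14569 tested sense genes in npr1-1 (vertical axis) and Col-0 (horizontal axis), coloured by the call in npr1-1, with the line of equal change. Points follow the line, with 5859 of 5872 called genes on the same side of 0 in both genotypes, and TOPP9 and TIFY7, which have the smallest p of the difference along with 3 other genes, lie away from it without being called.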

How the data were processed

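Expected counts of tags per locus and strand were deposited by the authors, who mapped EXPRSS Tag-seq reads to TAIR10 with Bowtie 0.12.8 and split tags with several matches between genes, so that 13.5% to 17.4% of values in the 6 libraries were not whole. Counts were rounded. Sense and antisense loci (16816 features) that passed filterByExpr by group (minimum count 10, total 15, share 0.7) were fitted with edgeR 4.0.16 in R 4.3.3, by quasi-likelihood with TMM factors over all 96 libraries and 32 group terms, and adjusted over all features. Calls were made at adjusted p under 0.01. The model the study used, baySeq, was not run here. DESeq2 1.42.0 was an alternative, as were other scalings, filters and sets of libraries, the replicate block and leaving out each library. TMM with library sizes over all features was added after seeing the data.

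The deviations of same-numbered 60 min and water libraries from their group means correlated (0.268, 0.365 and 0.427 over 5000 loci). Libraries with unlike numbers had correlations of -0.327 to 0.0526. The numbers were taken to pair the samples in the replicate block only, and the fit as reported held no replicate term. The labels do not say whether replicates came from separate plants. The p-values measure the spread between samples, estimated over all 96 libraries and 32 groups and not over the libraries compared alone. For npr1-1 at 60 min of flg22 against water, the smallest adjusted p by edgeR was 1.11e-22 as reported. It was 7.93e-07 when only the libraries compared were fitted, with 11866 genes tested against 14569. Intervals, and the floor of 3 tags over a group with 0 tags, cover counting error only. The text names the 10 largest rises and falls among called genes whose libraries did not overlap between the groups and whose higher mean was at least 10 TPM, the 3 most abundant genes each way with an absolute log2 change of at least 2, the 3 largest changes each way between times, the 5 smallest p of the difference from Col-0, and list members. The members of the comparison and the lists were chosen with earlier results of these data known.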

Additional observations from a re-analysis of the deposited data

Results flagged for a closer look

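Tags from the opposite strand were counted apart from the genes. They shared the model and the adjustment with the sense genes, and no count above includes them. At 60 min of flg22, 409 of 2247 tested antisense transcripts were called higher than in water by edgeR and 138 lower (24.3% called). Over all tested sense genes 40.3% were called, 17% higher and 23.3% lower. Of 509 called with a tested sense partner, 454 had a partner called in the same direction and 6 in the opposite direction, and for 49 the partner was not called. Partners of antisense transcripts that were not called were not counted.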

How the results depend on the processing

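For npr1-1 at 60 min of flg22 against water, the number of calls stayed within 1.5 times 5872 under all 16 alternatives, with 6958 for the replicate block, 7532 at adjusted p under 0.05, 4414 with the 6 libraries alone and 4511 to 5159 without 1 library. For 60 against 30 min of flg22, 660 genes were called with the libraries compared alone, 2666 with the replicate block, 3061 at adjusted p under 0.05 and 862 to 1820 without 1 library, against 1703 as reported. For 180 against 60 min, 3923 were called at adjusted p under 0.05 and 1679 to 2199 without 1 library, against 2506. The difference between npr1-1 and Col-0 gave 0 calls under every alternative run. Of 350 named genes, 209 were called at 60 min against water, 178 of them under each of the alternatives with the same threshold (at most 15) in which the gene was tested, and 0 were called in the opposite direction. The replicate block ended no call of a named gene in that comparison.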

Other observations

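Of the 6 pairs with opposite calls, PAD4 was chosen after its values were seen. Its antisense tags averaged 2.95 TPM at 60 min of flg22 against 16 TPM in water (log2 change -2.41 ± 0.58, adjusted p = 3.69e-04 by edgeR), whereas its sense tags averaged 38.9 TPM against 6.3 TPM.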
